A study of Homo sapiens with 9 samples.

Results

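The H19 and IGF2 locus was taken as chromosome 11 from 1.95 to 2.22 Mb of build hg19. Every peak of the 9 lists in this 270 kb window was collected, and peaks that shared at least 1 bp were merged into a site. The 127 peaks gave 27 sites, of 91146 sites formed in the same way over chromosomes 1 to 22 and X. They are numbered 1 to 27 from the 3′ side of H19 to the 5′ side of IGF2, and no list had more than 1 peak at a site. The lists come from ChIP-nexus, a chromatin immunoprecipitation in which exonucleases trim the DNA up to the bound protein, in HEC-1-B, an established human uterine adenocarcinoma cell line. Wild-type cells were assayed with antibodies to ZNF143, CTCF and RAD21, and ZNF143KO cells with those to CTCF and RAD21. CTCF-AID cells, in which CTCF carries an auxin-inducible degron and TiR1 is expressed, were assayed for ZNF143 and CTCF after 0 h and 24 h of IAA, the auxin, at 500 µM. The labels do not say whether the knockout or the degron line was a single clone. Neither ZNF143 in the knockout cells nor CTCF protein after IAA was measured in the files used here.

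H19 is a maternally expressed long noncoding RNA gene, and IGF2 encodes a fetal growth factor that is expressed from the paternal allele in most tissues. Between them, just upstream of H19, lies an imprinting control region (ICR; taken here as 2.019 to 2.025 Mb) with repeated CTCF target sequences: methylation keeps CTCF off the paternal copy, and on the maternal copy CTCF acts as an insulator between IGF2 and enhancers beyond H19. CTCF halts the cohesin ring, of which RAD21 is a subunit, and ZNF143 is a zinc finger factor of promoters that is often found beside CTCF. The peak lists do not separate the maternal from the paternal allele. Both genes are read from the higher towards the lower coordinate, so the side of the window above IGF2 is its 5′ side. In RefSeq (GRCh38.p14, used for the order only) the neighbours run LSP1, TNNT3, MRPL23, H19 with MIR675 inside it, IGF2 with INS-IGF2 and IGF2-AS, INS and TH.

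Each group held 1 library, so no difference between conditions could be tested, and the intervals given below cover counting error only. The lists held 13865 to 63420 peaks on chromosomes 1 to 22 and X. Their depth was read from the background reads per kb, derived from the authors' values. It was 5.96 in wild-type ZNF143, 8.63 in wild-type CTCF and 7.81 in wild-type RAD21. The knockout libraries were deeper, at 18.9 for CTCF and 26.1 for RAD21. In CTCF-AID cells the value was 13.5 at 0 h and 12.1 at 24 h for ZNF143, and 12.8 at 0 h and 3.88 at 24 h for CTCF. Peaks were listed down to a −log10 q of 5.00 in the knockout lists and of 3.001 to 3.02 in the other 7.

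Of the 27 sites, 5 lay on the 3′ side of H19, 7 in the ICR, 4 between the ICR and IGF2, and 11 on the 5′ side of IGF2. No list had a peak inside the H19 interval (2.0164 to 2.0191 Mb) or the IGF2 interval (2.1503 to 2.1709 Mb). At each list's genome-wide density, 0.0941 to 0.430 peaks would fall in the 20.6 kb of IGF2. The window was denser, at 77.8 wild-type and 88.9 knockout CTCF peaks per Mb against 17.5 and 20.9 over the genome. More peaks would thus fall there at the window's own density, and whether the interval is emptier than its surroundings was not tested. The window itself held 12 wild-type ZNF143, 21 wild-type CTCF and 19 wild-type RAD21 peaks, and 24 CTCF and 20 RAD21 peaks in the knockout. In CTCF-AID cells it held 14 CTCF peaks at 0 h and 4 at 24 h, and 11 ZNF143 peaks at 0 h and 2 at 24 h. Peaks were 3.24 to 5.18 times as dense in the window as over the genome in 8 lists, and 1.37 times as dense in the 24 h ZNF143 list. The site nearest to H19 was site 6, 603 bp above the start of the gene. The nearest to IGF2 was site 17 (chr11:2171550-2171663), which began 650 bp beyond the interval's upper end.

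**Figure D1:**
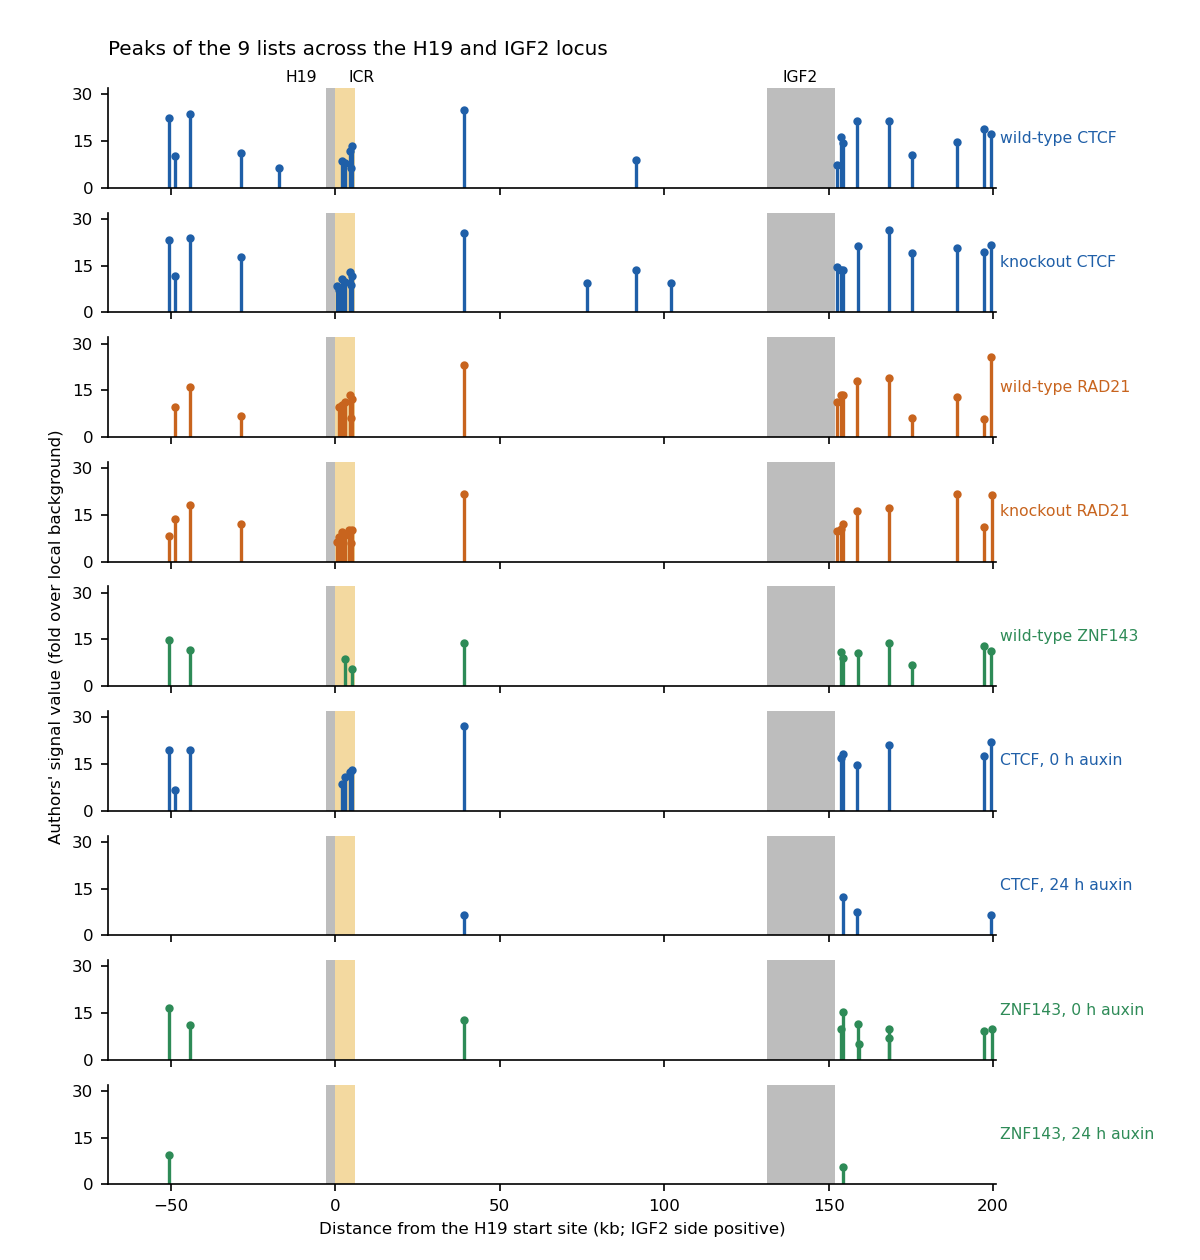
Peaks of each list (rows) by distance from the H19 start in kb; the height is the authors' signal value, a fold over local background, and the shaded bands are H19, the ICR and IGF2. The ICR holds 4 to 7 peaks in the CTCF and RAD21 lists of wild-type, knockout and 0 h cells, 2 in wild-type ZNF143 and 0 in both 24 h lists and in 0 h ZNF143.

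In wild-type cells, ZNF143 at this locus was found at CTCF peaks and nowhere else. All 12 ZNF143 peaks overlapped a CTCF peak (100%, exact 95% interval 73.5% to 100%), beside a background of 73.1% of the ZNF143 peaks of the genome. A RAD21 peak lay at 11 of the 12 (91.7%, 61.5% to 99.8%; background 72.9%). CTCF and RAD21 met at 18 of 21 CTCF peaks (85.7%, 63.7% to 96.95%; background 76.4%), and 12 of the 21 had ZNF143 (57.1%; background 50.6%). These 3 factors shared 11 sites: 3, 9, 12, 13, 18, 19, 20, 23, 24, 26 and 27. CTCF and RAD21 without a ZNF143 peak occupied 7 sites, among them sites 8, 10 and 11 of the ICR. Site 1 had CTCF and ZNF143 without RAD21, sites 5 and 15 had CTCF only, and site 7 had RAD21 only. The first of these intervals starts at the edge of its genome-wide share, and without the ICR (10 of 10, lower limit 69.2%) it holds it. Of the genome's ZNF143 peaks, 67.1% to 86.5% overlapped CTCF in the signal deciles in which the locus has peaks, and 29.8% in the highest, in which it has none. The other intervals hold their genome-wide shares.

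The ICR carried 7 sites, each described here because the element is the insulator of the locus. Site 6 (chr11:2019703-2019767) had peaks only in the knockout, with a signal of 8.56 for CTCF and 6.14 for RAD21. The signal is the authors' fold of the summit over the local background and is used to rank peaks within a list. Site 7 (chr11:2020247-2020318) had a wild-type RAD21 peak (9.51) and knockout peaks of CTCF (7.12) and RAD21 (7.79). Site 8 (chr11:2021108-2021280) had CTCF at 8.504 and RAD21 at 10.3 in wild type, 10.6 and 9.39 in the knockout, and CTCF at 8.46 in 0 h CTCF-AID cells. Thus the sites nearest to H19 were also those found in the fewest lists, 2 and 3, against 5 for site 8.

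Site 9 (chr11:2021982-2022040) had all 3 factors in wild type, with CTCF at 7.98, RAD21 at 11.1 and ZNF143 at 8.74. Its knockout signals were 9.81 for CTCF and 8.68 for RAD21, and its 0 h CTCF signal was 10.8. At site 10 (chr11:2023346-2023520) the signals were 11.9 and 13.6 for wild-type CTCF and RAD21, 13.0 and 10.1 in the knockout, and 12.3 for CTCF at 0 h, with no ZNF143 peak. Site 10 had the highest RAD21 signal of the region in wild type and the highest CTCF signal of the region in the knockout. Site 11 (chr11:2023821-2023879) had CTCF at 6.46 and RAD21 at 6.17 in wild type and 8.76 and 6.10 in the knockout, and no 0 h peak. Site 12 (chr11:2024156-2024326), farthest from H19, had CTCF at 13.5, RAD21 at 12.3 and ZNF143 at 5.58 in wild type, 11.6 and 10.1 for CTCF and RAD21 in the knockout, and CTCF at 13.1 at 0 h. Sites 9 and 12 were thus the only places in the region with a ZNF143 peak, and only in wild-type cells. Neither 24 h list and no ZNF143 list of CTCF-AID cells had a peak in the ICR.

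**Figure D2:**
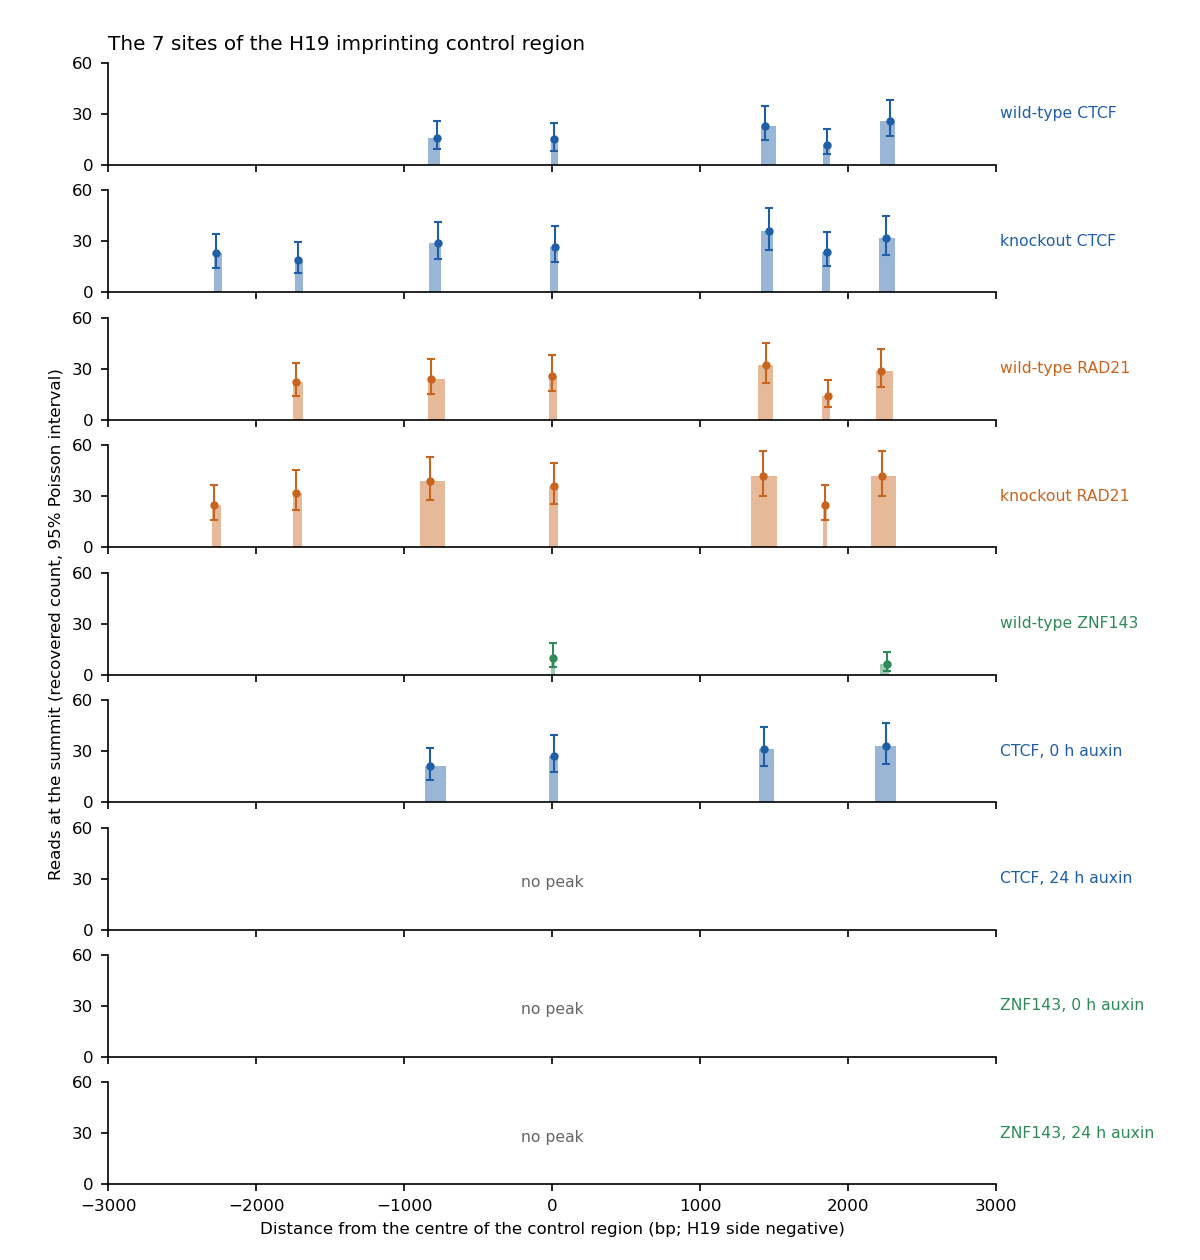
Reads at the summit (points, with exact 95% Poisson intervals) and extent (bars) of the peaks of the ICR, by distance in bp from its centre, for the 9 lists. Knockout CTCF and RAD21 fill all 7 sites; wild-type CTCF lacks the 2 sites on the H19 side, with 12 to 26 reads at the others.

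The number of reads stacked at each summit was recovered from the signal and −log10 p. These counts appeared to have a ceiling in each list that rose with its shortest peak. The highest count was 54 in wild-type CTCF (shortest peak 27 bp) and 42 in wild-type RAD21 (21 bp). It was 50 in knockout CTCF (25 bp), 44 in knockout RAD21 (22 bp) and 88 in 0 h CTCF (44 bp). No peak of the window reached the ceiling, but near it a count may understate the reads. The Poisson intervals and the depth scaling below do not allow for this. In wild-type CTCF the 5 ICR summits had 12 to 26 reads, and in wild-type RAD21 the 6 summits had 14 to 32. Knockout CTCF had 19 to 36 reads, knockout RAD21 25 to 42, and 0 h CTCF 21 to 33. The ZNF143 summits of sites 9 and 12 had only 10 reads (exact 95% interval 4.80 to 18.4) and 6 reads (2.202 to 13.1). The knockout CTCF summits lay 557, 941, 789, 1452, 389 and 396 bp apart, over 4524 bp in all. Wild-type CTCF summits repeated the spacing of sites 8 to 12, at 792, 1422, 421 and 424 bp.

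Such a cluster was rare. With the genome cut into bins of 6 kb placed so that the ICR filled 1 bin, 33 of the 56754 bins with a knockout CTCF peak (0.0581%) held 7 or more summits. For wild-type CTCF, 99 of 47599 bins held the 5 or more of the ICR (0.208%). For wild-type RAD21, 59 of 44458 bins held 6 or more (0.133%), and for 0 h CTCF 132 of 27308 bins held 4 or more (0.483%). The placement of the bins was chosen for the ICR, so these shares describe how crowded it is and are not a test.

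The ICR peaks ranked lower in their lists by signal than by reads. In wild-type CTCF the median ICR peak exceeded 22.95% of the list by signal and 38.5% by summit reads. For wild-type RAD21 the values were 39.3% and 63.1%, for knockout CTCF 20.9% and 45.2%, for knockout RAD21 21.0% and 63.5%, and for 0 h CTCF 33.3% and 42.1%. The authors' local background, the denominator of the signal, was above the most frequent value of its list across the region. In wild-type RAD21 it was 8.66 to 8.73 times the list's most frequent value, and in knockout RAD21 5.63 to 5.68 times. It was 4.29 to 4.35 times in wild-type CTCF, 3.82 to 3.92 in knockout CTCF and 2.84 to 2.85 in 0 h CTCF. Over the rest of the window it ran from about the most frequent value up to 4.59 times for CTCF and 6.67 times for RAD21 in wild type, and up to 3.21 and 4.20 times in the knockout. In 0 h CTCF it reached 5.36 times outside the ICR, above the value inside it. A rank by signal therefore places these peaks lower than a rank by the reads themselves, in all 5 lists.

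**Figure D3:**
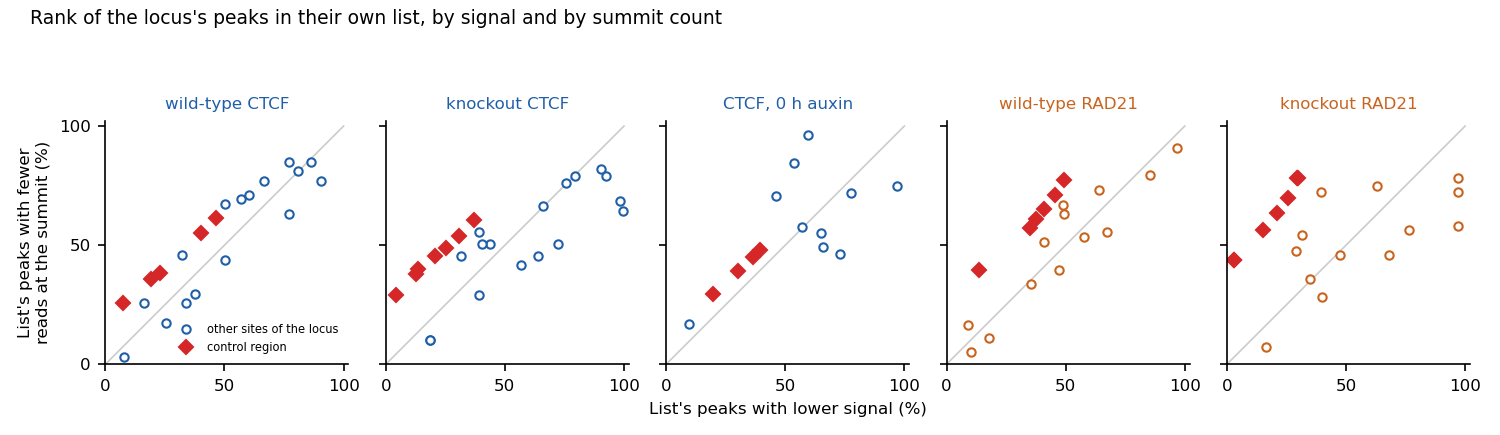
Rank of each peak of the locus in its own list, as the percent of the list's peaks with a lower signal (horizontal) and with fewer summit reads (vertical), for 5 lists; diamonds are the ICR and circles the other sites. Every diamond lies above the diagonal.

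Outside the ICR, 9 sites had a peak in 7 or more of the 9 lists, and 4 of them were in 8 or 9. Site 19 (chr11:2173271-2173463), 2371 bp beyond the upper end of the IGF2 interval, was the only site in all 9. Its signals were 14.5 for CTCF, 13.4 for RAD21 and 9.05 for ZNF143 in wild type, and 13.5 and 12.0 for CTCF and RAD21 in the knockout. In CTCF-AID cells it had CTCF at 18.2 at 0 h and 12.2 at 24 h, and ZNF143 at 15.2 and 5.71. By reads its 0 h CTCF summit, at 72, was the highest of that list's peaks in the window. Counts are not compared across lists, whose highest counts differ.

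Site 13 (chr11:2058181-2058395) lay alone, 39081 bp above the start of H19, with the next site 33854 bp away. It had signals of 25.01 for CTCF, 22.96 for RAD21 and 13.8 for ZNF143 in wild type and of 25.4 and 21.6 for CTCF and RAD21 in the knockout. Its CTCF signal was 27.2 at 0 h and 6.40 at 24 h, and its ZNF143 signal was 12.7 at 0 h with no peak at 24 h. It exceeded 90.7% of the list by signal in wild-type CTCF and 98.4% in knockout CTCF, where the highest ICR peak exceeded 46.2% and 37.2%. By summit reads it exceeded 77.1% and 68.7%, and the highest ICR peak 61.2% and 60.5%, a smaller gap. Site 20 (chr11:2177781-2177996) had CTCF at 21.5, RAD21 at 17.9 and ZNF143 at 10.5 in wild type, 21.2 and 16.4 for CTCF and RAD21 in the knockout, CTCF at 14.8 and 7.58 at 0 h and 24 h, and ZNF143 at 11.5 at 0 h only. Site 27 (chr11:2218523-2218738) had 17.3, 25.6 and 11.4 for the same factors in wild type, 21.7 and 21.5 in the knockout, CTCF at 22.1 and 6.40 at 0 h and 24 h, and ZNF143 at 9.95 at 0 h only. All 4 sites thus had every factor that was assayed in wild-type, knockout and 0 h cells, and CTCF at 24 h.

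**Figure D4:**
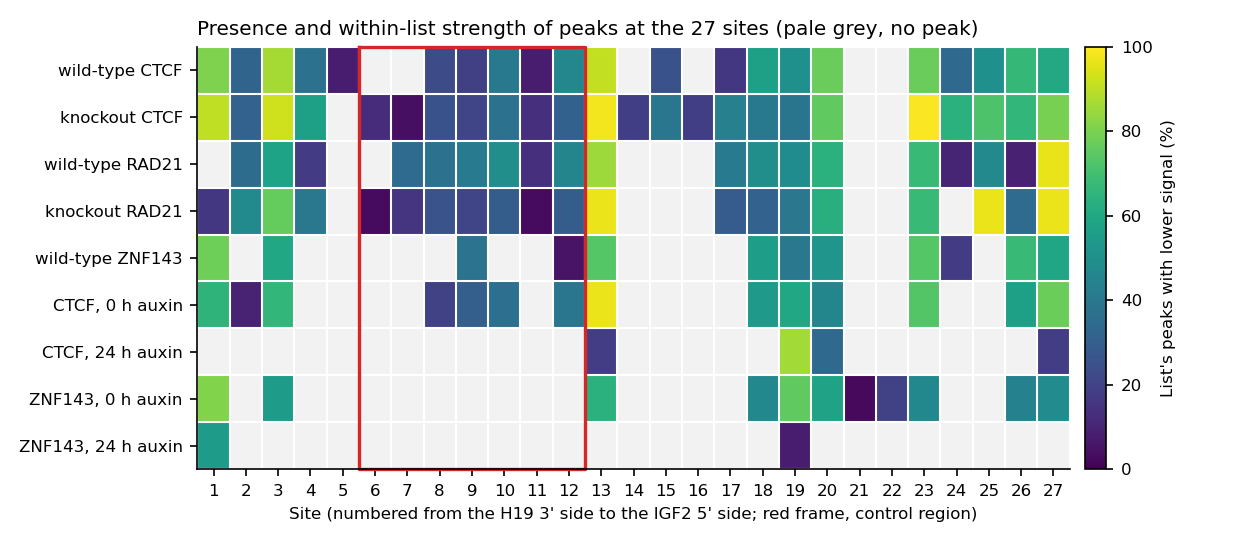
Peaks of the 9 lists (rows) at the 27 sites (columns), coloured by the percent of the list's peaks with a lower signal; pale grey means no peak and the red frame is the ICR. Site 19 is filled in all rows, and the columns of the ICR are empty in the last rows.

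Knockout of ZNF143 was compared with wild type to see which CTCF sites lost their peak. Nearly all were still there: 20 of 21 wild-type CTCF peaks overlapped a knockout peak (95.2%, 76.2% to 99.9%), beside 94.0% over the genome. The knockout library was deeper, at 18.9 background reads per kb against 8.63, so a kept peak does not show equal binding. All 5 CTCF sites of the ICR and all 12 CTCF sites with wild-type ZNF143 were among the kept peaks. For the 5 ICR sites the genome-wide shares of their signal deciles would give 4.42. Of the sites with ZNF143, sites 9, 12 and 24 lay in signal deciles 2, 5 and 4. Over the genome 81.5%, 99.6% and 97.2% of these deciles had a knockout peak. The rest of the 12 lay in deciles 6 to 10, of which 99.96% to 100% had one. Whether ZNF143 made a difference at equal signal was not tested. The only wild-type CTCF peak without a knockout peak, site 5 (chr11:2002085-2002115), lies on the 3′ side of H19. It was among the weakest of the wild-type list, with a signal of 6.49 in the lowest decile and 7 reads (2.81 to 14.4). Of that decile, 70.5% had a knockout peak over the genome. Scaled by the ratio of background reads per kb, 2.19, the 7 reads came to 15.3 (6.17 to 31.6) in the knockout library. By the background of a read footprint they came to 14.2, and the lowest called knockout count at that background was 8.

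The knockout list had 4 CTCF peaks with no wild-type counterpart among its 24 (16.7%, 4.74% to 37.4%), beside 21.6% over the genome. At the shorter list's size it was 9.52% (2 of 21). The 4 were sites 6 and 7 of the ICR and sites 14 (chr11:2095675-2095706) and 16 (chr11:2121055-2121092) in the stretch between the ICR and IGF2. Sites 14 and 16 each had a signal of 9.51 and 13 reads. By signal all 4 fell in the lowest 2 deciles of the list, of which 34.0% and 36.4% had a wild-type peak. By reads sites 6 and 7 fell in decile 4, of which 74.3% had one. For the 7 ICR peaks together, the signal deciles would give 3.63 with a wild-type peak and the read deciles 6.20, and 5 had one. The wild-type library was shallower, so the knockout reads were scaled by the ratio of background reads per kb, 0.456. Site 6, with 23 reads, came to 10.5 (6.65 to 15.7), and site 7, with 19 reads, to 8.67 (5.22 to 13.5), against a lowest called wild-type count of 8 at that local background. Sites 14 and 16 came to 5.93 (3.16 to 10.1) against 5. Scaled per footprint the 4 counts were 11.3, 9.36, 6.40 and 6.40. All 4 scaled counts thus lay above the lowest called count under both scalings, while the counting intervals held it.

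RAD21 behaved much the same. Of 19 wild-type RAD21 peaks, 18 had a knockout peak (94.7%, 74.0% to 99.9%; background 92.3%), all 6 of the ICR among them. The exception was site 24 (chr11:2194532-2194621), where wild type had CTCF at 10.5, RAD21 at 6.01 and ZNF143 at 6.89. Its knockout CTCF peak remained, at 19.01, without RAD21. The wild-type RAD21 peak there rested on 6 reads (2.202 to 13.1), in a signal decile of which 76.3% had a knockout peak over the genome. Scaled to the deeper knockout library, the 6 reads came to 20.1 (7.37 to 43.7) per kb and 21.0 per footprint. The lowest called knockout count at that background was 8. Of 20 knockout RAD21 peaks, 2 had no wild-type counterpart (10.0%, 1.23% to 31.7%; background 20.9%), and 5.56% (1 of 18) at the shorter list's size. At site 6 of the ICR the knockout RAD21 count of 25 scaled to 7.47 (4.83 to 11.03) against a lowest called count of 8. At site 1 (chr11:1968429-1968609) the knockout RAD21 signal was 8.06, and its 12 reads scaled to 3.59 (1.85 to 6.26) against 4. Site 1 was the wild-type site with CTCF (22.3) and ZNF143 (14.7) without RAD21, and its knockout CTCF signal was 23.4. Every knockout RAD21 peak of the locus lay at a knockout CTCF peak (20 of 20; background 87.3%).

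The 0 h CTCF-AID libraries were set beside wild type, as the difference between lines and libraries without auxin or knockout. Of 21 wild-type CTCF peaks, 14 were found at 0 h (66.7%, 43.0% to 85.4%; background 55.1%), and all 14 of the 0 h peaks were in wild type (background 95.6%). With both lists at the shorter list's size the share was 90.9% (10 of 11). The missing sites were 4, 5, 11, 15, 17, 24 and 25. The strongest of them were site 25 (chr11:2208025-2208156), with a wild-type CTCF signal of 14.6 and 18 reads, and site 4 (chr11:1990408-1990533), with 11.4 and 13 reads. Both had knockout CTCF peaks, at 20.6 and 17.7. In the ICR, 4 of 5 wild-type sites had a 0 h peak, where the shares of their signal deciles over the genome would give 1.33, and those of their read deciles 2.31. The count of 4 lay above both values, less so by reads, over 5 peaks and without a test. Its exact 95% interval, 28.4% to 99.5%, holds the 55.1% over the genome.

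For ZNF143, 9 of 12 wild-type peaks were found at 0 h (75%, 42.8% to 94.5%; background 73.1%). The 3 without a 0 h peak were sites 9 and 12 of the ICR and site 24. Their wild-type counts were 10, 6 and 7 reads, below the 11 to 19 reads of the other 9. Of their signal deciles, 62.1%, 38.1% and 44.1% had a 0 h peak over the genome. The 0 h library was deeper, and scaled to it per kb the 3 counts came to 22.7, 13.6 and 15.9 reads. These lay above the lowest called 0 h counts of 7, 7 and 6 at their backgrounds. The same scaling, however, gave more reads than were found at each of the 9 kept sites except site 19. At sites 13, 20 and 26 it gave 34.1, 27.3 and 36.4 reads, where 17, 20 and 16 were found. The scaled counts of the 3 missing sites may therefore be too high, and do not show that a 0 h peak would have been called there. The 0 h list had 2 further ZNF143 peaks, at sites 21 (chr11:2178241-2178308; signal 5.07, 8 reads) and 22 (chr11:2187407-2187442; signal 7.04, 9 reads), 2 of 11 beside a background of 23.2%. These were the only sites of the locus with no CTCF peak in any list. They lay 244 bp above site 20 and 31 bp below site 23, both of which had ZNF143 peaks of their own.

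After 24 h of auxin, 4 of the 14 CTCF peaks at 0 h had a CTCF peak left (28.6%, 8.39% to 58.1%), beside 44.4% over the genome. They were sites 13, 19, 20 and 27, and 0 of the 4 ICR sites was among them (upper 95% limit 60.2%). All 4 CTCF peaks at 24 h were at 0 h peaks (background 99.1%). At 0 h the 4 sites had 52, 72, 49 and 50 reads, and at 24 h 6, 16, 9 and 6. The sites without a 24 h peak had 15 to 59 reads at 0 h, and site 18 (chr11:2172692-2172942), with 59, was the only one of them above 40. Sites that stayed were therefore mostly the highest by reads, with site 18 as the exception, 328 bp from site 19. By signal the order was less clear: sites 23 (chr11:2187474-2187582; 21.1) and 3 (chr11:1974873-1975035; 19.6) had no 24 h peak, while site 20, at 14.8, did.

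Read against peaks of equal signal, the locus as a whole would give 6.07 of 14 at the genome-wide shares of its signal deciles and 7.05 at those of its read deciles. For the ICR these were 0.357 and 0.735 of 4, beside the 0 found there. The 24 h CTCF library was also shallower. The ICR counts at 0 h (21, 27, 31 and 33 reads at sites 8, 9, 10 and 12), scaled to the 24 h depth per kb, came to 6.38, 8.21, 9.42 and 10.0 reads, above the lowest called count of 5 there. Scaled by the background of 1 read footprint they came to 3.48, 4.48, 5.14 and 5.47, of which the first and second are below it. Site 18 scaled to 17.9 or 9.78 reads against 6. Sites 1, 3, 23 and 26, at 9.73 to 12.2 reads per kb scaling and 5.30 to 6.63 per footprint, were likewise above the lowest called count of 4 or 5 under both, and site 2 (4.56 and 2.49 against 5) was below it under both. With 1 library a time, a loss of CTCF and a difference between the libraries cannot be told apart.

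**Figure D5:**
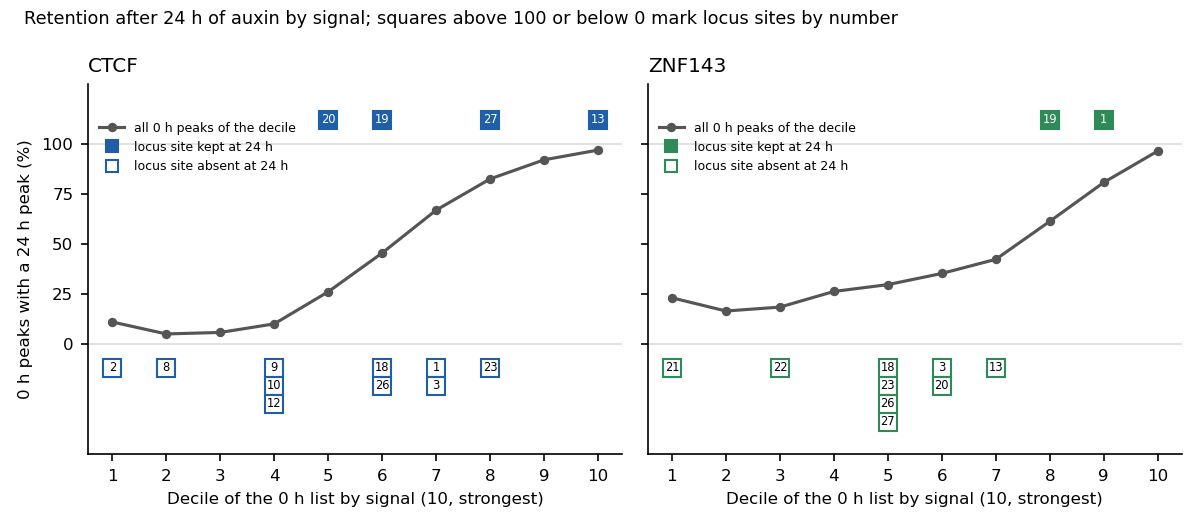
Percent of the 0 h peaks of the genome with a 24 h peak (line) by decile of the 0 h list by signal, for CTCF (left) and ZNF143 (right); squares placed outside 0 to 100 are the numbered sites of the locus, filled where a 24 h peak was present. The ICR sites 8, 9, 10 and 12 are in deciles 2 and 4 of the CTCF list, of which 5.14% and 10.2% had a 24 h peak. By reads (not drawn) they are in deciles 4 and 5, of which 10.7% and 26.1% had one.

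Fewer ZNF143 peaks were left at 24 h. Of the 11 ZNF143 peaks at 0 h, 2 had a 24 h peak (18.2%, 2.28% to 51.8%), beside 43.2% over the genome. The share was 40.0% (2 of 5) with both lists at the shorter list's size and 10.0% (1 of 10) at a minimum −log10 q of 5. The 2 were sites 1 and 19, whose 0 h signals of 16.6 and 15.2 and counts of 29 and 28 reads were the 2 highest of the 11, and the 24 h list had no further peak in the window (2 of 2 at 0 h peaks; background 91.9%). At 24 h they had signals of 9.43 and 5.71 on 13 reads (6.92 to 22.2) and 7 reads (2.81 to 14.4). The 24 h ZNF143 peak of site 19 had a −log10 q of 4.57, so it was absent, and 1 peak was left, at a minimum of 5. The other 9 had 8 to 20 reads at 0 h, and at their signal deciles' genome-wide shares 4.17 of the 11 would have been kept, or 3.57 at their read deciles' shares. The ZNF143 libraries had like depths, and the counts of these 9 scaled to 7.15 to 17.9 reads at 24 h, each above the lowest called count of 6 or 7 at its background. Per footprint they scaled to 6.69 to 16.7, with site 21 alone below that count.

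Only a few of these ZNF143 peaks lacked CTCF. A CTCF peak lay at 9 of the 11 ZNF143 peaks at 0 h (background 56.1%), and 2 of these 9 were kept (22.2%, 2.81% to 60.01%; background 31.9%). Of the 2 without CTCF, sites 21 and 22, 0 were kept (upper 95% limit 84.2%; background 57.6%). These 2 peaks rested on 8 and 9 reads, in the lowest read decile, of which 6.39% had a 24 h peak. Site 22 lay 31 bp from site 23, which had CTCF, so its lack of CTCF rests on the 1 bp rule. Site 1 kept ZNF143 but had no CTCF peak at 24 h, though its 0 h CTCF signal was 19.4 on 38 reads. Sites 13, 20 and 27 showed the reverse, with CTCF but no ZNF143 peak at 24 h. Site 19, beside IGF2, was the only one with both, 1 of the 2 ZNF143 peaks at 24 h (background 32.2%).

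How far RAD21 summits lay from CTCF summits was measured because the series is about CTCF and cohesin geometry. In wild type the median over the 18 shared sites was 10.5 bp (at least 95% order-statistic interval 5 to 28), and over the genome 15 bp. In the knockout it was 17.5 bp (12 to 26) over 20 sites, an interval that overlaps the wild-type one, and over the genome 12 bp. At the 17 sites with all 4 peaks the median was 15 bp in wild type and 18 bp in the knockout, and the distance was shorter at 8 and longer at 9. RAD21 lay on the same side of CTCF in both genotypes at 11 of the 17. Within the ICR the distances were 43, 16, 6, 6 and 61 bp at sites 8 to 12 in wild type and 49, 4, 43, 13 and 26 bp in the knockout. In wild type RAD21 lay toward H19 at sites 8, 9 and 12 and toward IGF2 at sites 10 and 11. In the knockout it lay toward H19 at all 7 ICR sites, including site 6 (14 bp) and site 7 (17 bp), and over the window at 12 of 20 sites, against 11 of 18 in wild type. The CTCF summit itself differed by a median of 8.5 bp between the wild-type and knockout lists, with a range of 0 to 48 bp. For the RAD21 summit the median was 11 bp and the range 0 to 44 bp. Several of the ICR distances are no larger than these shifts, so the side on which RAD21 lay is uncertain there. Wild-type ZNF143 summits lay a median of 15.5 bp (8 to 21, 12 sites) from those of CTCF, beside 10 bp over the genome.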

How the data were processed

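The authors deposited 9 narrow-peak lists, 1 per library; their submitters' processing notes name cutadapt 2.10, Bowtie2 2.3.5.1, SAMtools 1.12, MACS2 2.2.7.1, deepTools and build GRCh37/hg19, without roles or settings. Each peak has the authors' score, fold (signal) ratio, −log10 p and −log10 q values, and a summit offset. The deposited score equalled the whole part of 10 times −log10 q for 354024 of 354101 peaks. Groups were taken from the labels.

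Peaks overlapping by at least 1 bp were called shared. Shares have exact (Clopper-Pearson) 95% intervals, and each stands beside the share over chromosomes 1 to 22 and X, which is a description and not a test, since each group held 1 library. The summit count c and local background b were solved from the fold, (c + 1)/(b + 1), and the Poisson −log10 p. This form, the one MACS2 uses, gave whole counts within 0.002 of the deposited −log10 p for 100% of peaks. The most frequent background divided by the shortest peak length, taken as a read's footprint, gave reads per kb. Depth scaling took summit counts as proportional to the background, which the ceiling on these counts limits. The code of these steps was checked on simulated data (2957 counts and 300 overlap calls, 0 wrong). The simulated counts were made with the same form and without a ceiling. The check therefore does not show that the form holds for the deposited lists. Tools were scipy 1.17.1, pandas 2.3.3, numpy 2.4.6 and matplotlib 3.10.9 under Python 3.11.15.

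The locus, its intervals and the rules were chosen with earlier results of these data known. Named sites are those in H19, the ICR or IGF2, the 4 others in most lists, and the 2 of highest signal found in only one list of each pair of an antibody, in either direction. These came to 22 of the 27, and a site named beside them (2, 15, 17, 18 or 26) was named after its values were seen. Alternatives were a minimum −log10 q of 5, summits within 50 bp, merging within 100 bp, lists of equal size and summit pairs within 100 bp. Leaving out the ICR and ranking by summit reads were chosen after seeing the data. No hg19 sequence or annotation was used here, so gene intervals are approximate: the RefSeq gene H19 (GRCh38.p14) is 6091 bp long against the 2.7 kb used, and motifs were not searched.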

Additional observations from a re-analysis of the deposited data

How the results depend on the processing

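Of 60 values recomputed for 27 counts, shares and distances, 58 stayed within 1.5 times the main count or inside the main share's interval, and 2 did not. With a minimum −log10 q of 5, the 24 h ZNF143 peaks in the window went from 2 to 1, as fewer peaks pass. With both lists at the shorter list's size, wild-type CTCF peaks found at 0 h went from 66.7% to 90.9% (10 of 11), as only stronger peaks remain. Shares over so few peaks moved by 1.5 times or more in 5 other instances inside their intervals, which are at the shorter list's size unless stated: ZNF143 kept at 24 h 40.0%, and 10.0% at −log10 q of 5, CTCF kept at 24 h 42.9%, and knockout-only peaks 9.52% for CTCF and 5.56% for RAD21. Without the ICR, CTCF kept at 24 h was 40.0% and wild-type ZNF143 at 0 h 90.0%. The number of lists per site was unchanged at 24 of 27 sites at −log10 q of 5; site 12 lost its wild-type ZNF143 peak, site 19 its 24 h ZNF143 peak and site 21 its only peak. No paired analysis was possible because each group held 1 library, and leaving out a replicate was not possible for the same reason. Depth limits the weakest peaks, which rest on 6 to 8 reads.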

Other observations

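Some peaks of the locus had identical values. Sites 14 and 16 each had a knockout CTCF signal of 9.51 on 13 reads, and sites 13 and 27 each had a 24 h CTCF signal of 6.40 on 6 reads. The fold and its p depend only on the whole count and the background, and in each pair the background was the most frequent one of the list. The deposited lists were also written in different number formats, 5 with 5 decimals and 4 with 6 digits, and the wild-type CTCF and knockout CTCF lists differed in this respect, as did the 0 h and 24 h CTCF lists.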
